A study of Mus musculus with 16 samples.

Results

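Nuclear receptor coregulators are proteins that thyroid hormone and retinoid X receptors recruit to their target genes. RNA of 9 such genes was followed here: the corepressor genes Ncor1, Hdac3, Tbl1x, Tbl1xr1 and Nrip1 and the coactivator genes Ncoa1, Ncoa2, Ncoa3 and Med1. They were chosen by name, from a list of corepressors and coactivators of these receptors, out of 55335 genes counted, and all 9 were among the 19764 that passed the filter on low counts. The cells were oligodendrocyte precursors (OPCs) of the mouse that had been raised from neural stem cells, on a mixed C57BL6J/129svEmx background, and harvested on day 4 of monolayer culture. There were 4 groups of 4 libraries: RXRgKO cells exposed for 24 h to T3 (triiodothyronine, the active thyroid hormone), untreated RXRgKO cells, T3-treated WT cells and untreated WT cells. The design text gives RXRgKO as RXRg-/- and WT as RXRg+/+; the removed part of the gene is not stated, and no other allele or agent is named. Whether the 4 libraries of a group stem from different cultures or mice is not stated, so the p-values reflect the spread between libraries, which may be technical.

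Without hormone, thyroid hormone receptors bound to DNA with a retinoid X receptor partner hold a corepressor complex in which NCOR1 is the scaffold, HDAC3 the histone deacetylase, and TBL1X and TBL1XR1 are subunits that also take part in exchanging corepressors for coactivators. Hormone binding releases that complex and recruits the steroid receptor coactivators NCOA1, NCOA2 and NCOA3, which bring in histone acetyltransferases, and the Mediator complex, which contacts hormone-bound receptors through its subunit MED1. NRIP1 differs from the other corepressors in binding receptors that carry their ligand. In the oligodendrocyte lineage, T3 promotes the step from precursor to myelin-forming cell, and unliganded receptor is thought to hold it back.

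Counts of the targeted gene, Rxrg, ran counter to the genotype labels. It averaged 4.92 ± 0.493 CPM (CPM is a library's counts scaled to a common total, here with TMM, a normalisation factor per library) in T3-treated RXRgKO-labelled and 0.703 ± 0.271 CPM in T3-treated WT-labelled libraries (SD, n = 4 each). Without T3 it averaged 4.25 ± 0.546 CPM under the RXRgKO label and 1.51 ± 0.282 CPM under the WT label. Whether the counted reads fall in the removed part of the gene was not tested, since that part is not stated. Groups are therefore named by their labels throughout, and every direction between genotypes rests on those labels.

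The libraries held 18262279 to 42588442 gene counts, and they fell into sets within groups. Of the RXRgKO-labelled libraries, T3-treated replicates 1 and 2 and untreated replicates 1 and 3 had 1.39 to 3.75 CPM of the X-inactivation RNA Xist (Xist-low), and the other 4 had 543 to 723 CPM (Xist-high). The Y-linked gene Ddx3y had 115 to 126 CPM in Xist-low libraries. In Xist-high libraries it differed between treatments, with 22.1 and 20.7 CPM with T3 and 52.9 and 51.2 CPM without. WT-labelled replicate 1 stood apart from replicates 2 to 4 in both treatments. The chi-square per gene between 2 libraries of a group was 1.503 to 2.124 within a set and 4.94 to 9.62 between sets. Markers of OPCs, such as Pdgfra and Gpr17, summed to 1354 to 2861 CPM in T3-treated and 1575 to 3204 CPM in untreated RXRgKO-labelled libraries, and to 2158 to 3303 CPM in T3-treated and 2429 to 4042 CPM in untreated WT-labelled ones, with no marker at 0. The 8 oligodendrocyte markers, Mbp among them, summed to 3150 to 5125 CPM in T3-treated and 1686 to 2289 CPM in untreated RXRgKO-labelled libraries. They summed to 19417 to 29676 CPM in T3-treated and 13087 to 17670 CPM in untreated WT-labelled libraries. With T3, 6 of these 8 rose under the RXRgKO label. Under the WT label 5 rose with T3, as did 1 of 7 microglial markers, while 3 of 8 neuronal and 1 of 8 OPC markers fell. Of the oligodendrocyte markers, 7 with T3 and 8 without were lower under the RXRgKO label. With and without T3, 6 of 7 microglial and 5 of 7 vascular or mesenchymal markers were higher under the RXRgKO label, as were 5 with T3 and 2 without of 8 neuronal ones. The microglial sum was 4.11 to 15.5 CPM with and 8.74 to 16.6 CPM without T3, against 1.86 to 2.52 and 1.71 to 2.53 CPM under the WT label, with Aif1 and Itgam at 0 in some libraries. The vascular or mesenchymal sum was 138 to 158 CPM with and 155 to 252 CPM without T3, against 32.2 to 46.1 and 36.3 to 45.4 CPM under the WT label, with Cldn5 at 0 in some. Astrocyte markers, led by Gfap, had no call, but their sum moved with the library sets. It was 15687 CPM in replicate 1 and 5073 to 6101 CPM in replicates 2 to 4 of T3-treated WT-labelled libraries, and 8754 and 3455 to 3634 CPM in untreated ones. In RXRgKO-labelled libraries it was 7411 to 8438 CPM in Xist-low and 4576 to 4828 CPM in Xist-high libraries with T3, and 5646 to 5990 and 3035 to 3115 CPM without. There the OPC sum moved the other way. With T3 it was 1354 to 1390 CPM in Xist-low and 2677 to 2861 CPM in Xist-high libraries. Without T3 it was 1575 to 1863 and 3202 to 3204 CPM. For OPC markers, WT-labelled replicate 1 had 3303 CPM with T3 and 4042 CPM without. Replicates 2 to 4 had 2158 to 2346.5 and 2429 to 2557 CPM. Neuronal and vascular or mesenchymal sums were also lower in Xist-low libraries, and microglial sums higher. In bulk RNA, fewer cells of a type and less RNA per cell cannot be told apart, and the part of cell makeup in the coregulator results was not tested.

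Per kilobase of exon, Hdac3 stood highest and Ncoa3 and Nrip1 lowest. The mean over all 16 libraries was 29.8 CPM per kb for Hdac3, 19.6 for Ncor1, 18.7 for Tbl1xr1, 14.4 for Tbl1x, 12.2 for Med1, 8.60 for Ncoa1, 5.98 for Ncoa2, 4.30 for Ncoa3 and 4.23 for Nrip1. The median of 15316 protein-coding genes tested was 5.05 CPM per kb. The 4 genes of the NCOR1 and HDAC3 complex thus lay above all 4 coactivators on this scale. Most neighbours in this order kept their order in 16 of 16 libraries. Ncor1 exceeded Tbl1xr1 in 10 of 16 and Ncoa3 exceeded Nrip1 in 7 of 16, so neither pair was separated beyond its spread. In the T3-treated groups the mean of Nrip1 lay above that of Ncoa3, and in the untreated groups below it: it was 4.71 ± 0.866 CPM per kb in T3-treated and 3.67 ± 0.439 in untreated RXRgKO-labelled libraries, and 5.30 ± 1.07 in T3-treated and 3.22 ± 0.338 in untreated WT-labelled libraries (SD, n = 4 each).

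**Figure D1:**
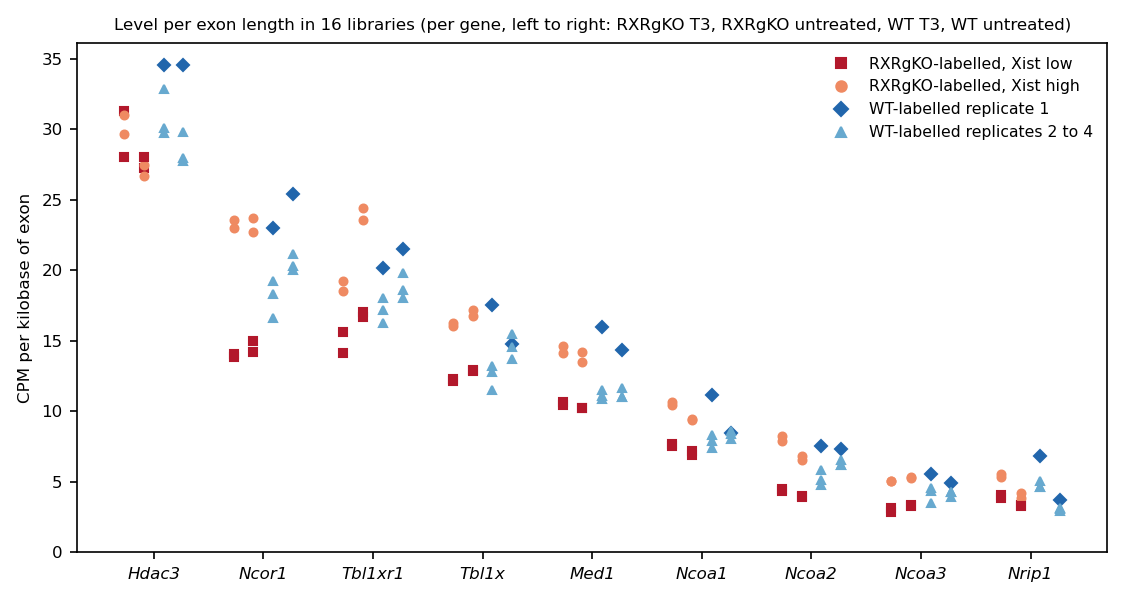
Level of the 9 coregulator genes per exon length (CPM per kb, linear axis from 0), 1 point per library; colours and shapes mark the library sets, and within a gene the groups run from T3-treated RXRgKO-labelled to untreated WT-labelled. The libraries of Hdac3 lie between 26.6 and 34.6 CPM per kb, above all those of Ncor1, the next gene, whose highest is 25.4.

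Nrip1 (ENSMUSG00000048490; GRCm38 chromosome 16, 76287400 to 76373827, minus strand) was the single member that passed the test in a comparison of 2 groups. RefSeq lists 2 transcript starts for it in GRCm38.p6. The 250 bases before each are shown because this is the gene that rose with T3; thyroid hormone and retinoid X receptors bind pairs of the hexamer AGGTCA or close variants such as GGGTCA, and capitals mark a match to either on either strand. The first lies at chr16:76373828-76374077 and the second at chr16:76373050-76373299, both read 5′ to 3′ on the minus strand.
Nrip1 window 1: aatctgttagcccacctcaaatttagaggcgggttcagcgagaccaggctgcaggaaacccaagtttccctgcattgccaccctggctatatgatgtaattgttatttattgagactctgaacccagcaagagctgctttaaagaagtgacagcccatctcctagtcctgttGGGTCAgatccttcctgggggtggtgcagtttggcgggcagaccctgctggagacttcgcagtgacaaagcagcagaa
Nrip1 window 2: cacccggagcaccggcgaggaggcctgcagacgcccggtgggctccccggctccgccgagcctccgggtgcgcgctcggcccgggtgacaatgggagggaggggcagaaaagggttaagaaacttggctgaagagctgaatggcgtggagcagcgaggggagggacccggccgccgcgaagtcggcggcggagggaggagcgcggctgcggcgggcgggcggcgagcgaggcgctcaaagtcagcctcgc
The first holds 1 GGGTCA that begins 78 bases before the start, and the second holds neither hexamer. They differ in base composition, with 51.2% G and C and 4 CG dinucleotides in the first and 73.6% and 32 in the second. Of 32851 RefSeq promoter windows that reach from 250 bases before to 50 after a start, 13.7% hold GGGTCA, 16.3% AGGTCA and 0.0152% the paired motif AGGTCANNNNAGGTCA on either strand. Of the 8 such windows of 6 members (Ncor1, Tbl1x, Tbl1xr1, Nrip1, Ncoa1 and Med1), 1 holds GGGTCA and 0 the other motifs. These matches describe letters and are not binding sites.

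T3 in the RXRgKO-labelled libraries addresses whether hormone changes the RNA of its receptors' cofactors when the labels say that the retinoid X receptor RXRg is missing. No member passed edgeR's quasi-likelihood test with Benjamini-Hochberg adjustment over all genes tested, against 2.81% of 19764 genes called. DESeq2 and limma voom called 0 of 9 as well, and 1 member, Nrip1, had an unadjusted p under 0.05. The members' median log2 fold change was 0.047, beside -0.0019 over all genes.

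Nrip1 had 44.4, 46.6, 61.2 and 63.8 CPM in T3-treated RXRgKO-labelled libraries (replicates 1 to 4), against 38.5, 44.0, 37.5 and 48.3 CPM in untreated ones. The groups overlapped: both Xist-low libraries with T3 lay within the span of untreated libraries, and both Xist-high libraries with T3 lay above them all. Its log2 fold change was 0.36 (SE 0.16, 95% interval 0.026 to 0.69, adjusted p = 0.273 by edgeR's quasi-likelihood test). Within the sets the T3 change was 0.26 on the log2 CPM scale in the Xist-low and 0.44 in the Xist-high libraries. Ddx3y also differed between treatments in the Xist-high libraries, and the part of that difference in these changes was not tested.

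Of the NCOR1 complex, Tbl1xr1 had the most negative value. It had 139, 126, 172 and 165 CPM in T3-treated RXRgKO-labelled libraries, against 152, 210, 148 and 218 CPM in untreated ones, a log2 fold change of -0.28 (SE 0.15, adjusted p = 0.389). Here the Xist-high libraries were the high ones in each group and the groups overlapped. Ncor1 had 177, 180, 302 and 294 CPM with T3, against 192, 291, 182 and 304 CPM without, and its log2 fold change was -0.024 (SE 0.21, adjusted p = 0.967). The Xist-low and Xist-high libraries differed far more than the treatments did. Tbl1x had a log2 fold change of -0.070 and Hdac3, the deacetylase, of 0.13.

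Of the coactivators, Ncoa2 had 69.9, 68.2, 123 and 129 CPM in T3-treated RXRgKO-labelled libraries, against 62.2, 107, 61.6 and 102 CPM in untreated ones. Its log2 fold change was 0.23 (SE 0.24, adjusted p = 0.664), and the groups overlapped. The 2 sets differed more than the treatments did, but within each set both T3-treated libraries lay above both untreated ones. The log2 fold changes of Ncoa1, Ncoa3 and Med1 were 0.14, -0.10 and 0.047. When the fit held a term for the library set, 3 members passed: Nrip1 (log2 fold change 0.35, adjusted p = 2.2e-04) and Ncoa2 (0.22, adjusted p = 0.0143) rose and Tbl1xr1 (-0.26, adjusted p = 0.00125) fell, in a fit that called 33.6% of all genes. The p-values of that fit, here and below, rest on the spread within sets, which may be technical, and the sets were read from these same counts. When the fit instead held the share of reads lying outside genes, 5 passed as lower (Ncor1, Tbl1x, Tbl1xr1, Ncoa2 and Ncoa3) in a fit that called 25.2% of genes, and Nrip1 had -0.10; that share was 11.5% to 18.7% in T3-treated and 18.1% to 23.5% in untreated RXRgKO-labelled libraries.

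**Figure D2:**
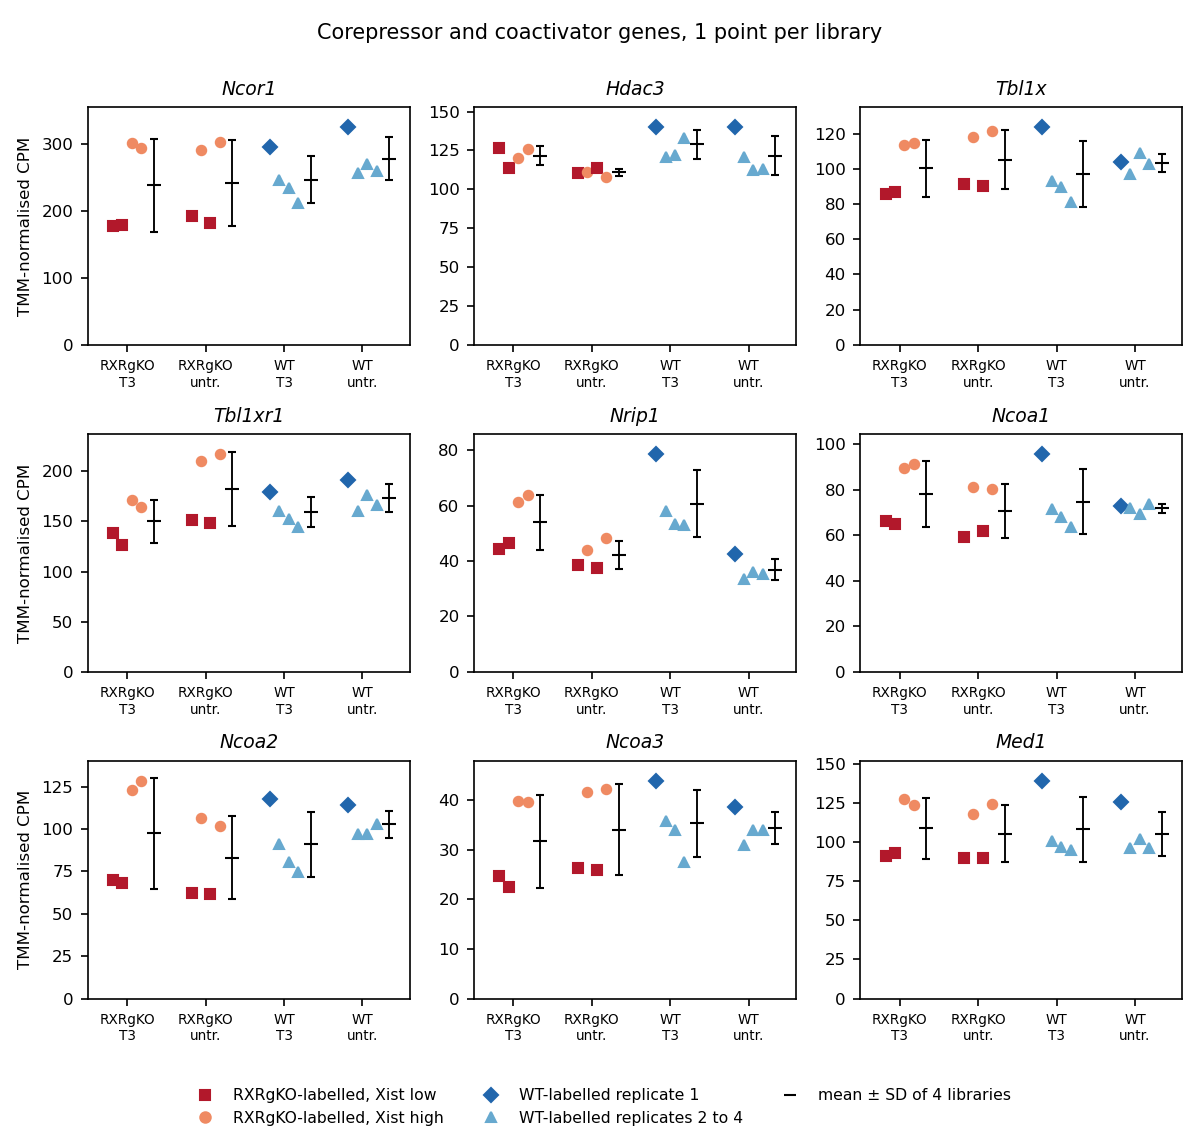
Normalised counts of the 9 coregulator genes (TMM-normalised CPM, linear axes from 0) in each of 16 libraries, with the mean ± SD of the 4 libraries of a group beside them. In the RXRgKO-labelled groups the Xist-low libraries (squares) lie below the Xist-high libraries (circles) for 8 genes, Hdac3 being the exception, and in the WT-labelled groups the T3-treated libraries of Nrip1 lie above the untreated ones.

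In the WT-labelled libraries, where the same question is put to cells labelled as carrying RXRg, Nrip1 rose with T3 and the other 8 members had no call. Of the 9 members 1 passed, beside 8.44% of all 19764 genes (4.96% called higher), so the share of members called is near that of genes at large. DESeq2 and limma voom likewise called Nrip1 alone. The members' median log2 fold change was 0.039, beside -0.032 over all genes.

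Nrip1 had 78.7, 58.1, 53.2 and 52.8 CPM in T3-treated WT-labelled libraries (replicates 1 to 4), against 42.4, 33.5, 36.1 and 35.4 CPM in untreated ones. The groups did not overlap, which held for 1 of 9 members and 15.4% of all genes, and replicate 1 was the highest library of each group. The log2 fold change was 0.72, a 1.65-fold rise (SE 0.16, 95% interval 0.39 to 1.06, adjusted p = 0.00844 by edgeR's quasi-likelihood test). Its size was 0.89 on the log2 CPM scale in replicate 1 and 0.64 in replicates 2 to 4. Without untreated WT-labelled replicate 3 the change was 0.70 with an adjusted p of 0.0509, the only one of 8 single omissions that ended the call. The share of reads outside genes was 12.5% to 14.7% in T3-treated and 16.7% to 17.6% in untreated WT-labelled libraries, without overlap. With that share as a covariate the change was 0.45 (adjusted p = 0.0321). Sex-linked RNA also differed between T3-treated and untreated libraries of replicates 2 to 4. Xist had 276 to 365 CPM in T3-treated and 1198 to 1382 CPM in untreated libraries, and Ddx3y had 68.1 to 78.3 and 13.9 to 15.8 CPM. In replicate 1 Xist had 401 CPM with T3 and 526 CPM without, and Ddx3y 60.6 and 73.3 CPM. Whether T3-treated and untreated libraries held the same mix of male and female cells was not tested. Nor was the part of these differences in the value of Nrip1.

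The genes of the NCOR1 complex had log2 fold changes near 0 with T3 under the WT label. Ncor1 had 295, 246, 234 and 212 CPM in T3-treated libraries, against 326, 256, 271 and 261 CPM in untreated ones, a log2 fold change of -0.17 (SE 0.21, adjusted p = 0.691). Replicate 1 was the highest library in both groups, and the groups overlapped through it. Hdac3 had 140, 120, 122 and 133 CPM with T3, against 140, 121, 113 and 113 CPM without, a log2 fold change of 0.084. Tbl1x and Tbl1xr1 had log2 fold changes of -0.090 and -0.12.

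The coactivator genes Ncoa1, Ncoa2, Ncoa3 and Med1 had log2 fold changes of 0.056, -0.18, 0.039 and 0.040 with T3 under the WT label. Ncoa2 had 118, 91.0, 80.5 and 74.4 CPM in T3-treated libraries, against 114, 97.2, 97.0 and 103 CPM in untreated ones. Replicates 2 to 4 with T3 lay below all untreated libraries, and T3-treated replicate 1 above them. Med1 had 95.4 to 101 CPM in T3-treated replicates 2 to 4 and 140 CPM in T3-treated replicate 1, and 96.4 to 126 CPM in untreated libraries. When the fit held a term for the library set, Nrip1 remained higher and Ncor1 (-0.17, adjusted p = 0.0169) and Ncoa2 (-0.19, adjusted p = 0.0242) also passed, as lower, in a fit that called 38.4% of all genes. When the fit held the share outside genes, Ncor1 (-0.62), Tbl1xr1 (-0.39) and Ncoa2 (-0.71) passed as lower and Nrip1 (0.45) as higher. That fit called 24.0% of all genes.

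**Figure D3:**
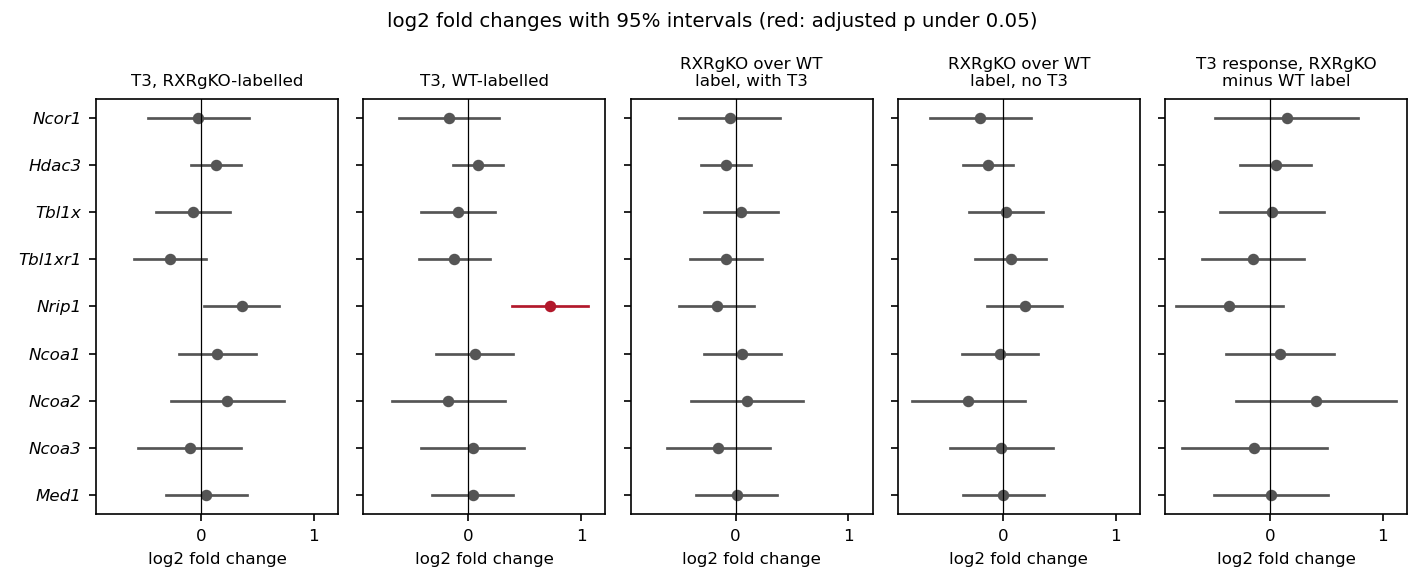
log2 fold changes of the 9 genes (points) with 95% intervals (lines) from the edgeR fit to all 16 libraries: T3 under each genotype label, RXRgKO over WT label with and without T3, and the difference in T3 response. Nrip1 with T3 under the WT label, 0.72 with an interval of 0.39 to 1.06, is the single value with an adjusted p under 0.05 (red).

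The T3 response difference asks whether the change with T3 differs between the genotype labels; it subtracts the change under the WT label from the change under the RXRgKO label. No member passed edgeR's test of it, 0 had an unadjusted p under 0.05, and 0.0658% of genes were called. DESeq2 and limma voom also called 0 members. For Nrip1 the difference was -0.36 (SE 0.22, 95% interval -0.83 to 0.11, adjusted p = 1.00), so a difference between the response of 0.36 under the RXRgKO label and that of 0.72 under the WT label was not shown. Ncoa2 had the other extreme, 0.41 (SE 0.34, 95% interval -0.30 to 1.12, adjusted p = 1.00). When the fit held a term for the set, both passed, at -0.36 (adjusted p = 0.0158) for Nrip1 and 0.41 (adjusted p = 0.00792) for Ncoa2, in a fit that called 6.68% of genes.

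The plot of T3 changes within sets puts these values side by side. Nrip1 was higher with T3 in all 4 sets, by 0.26 and 0.44 in the Xist-low and Xist-high RXRgKO-labelled libraries and by 0.89 and 0.64 in WT-labelled replicate 1 and replicates 2 to 4. Tbl1xr1 was lower with T3 in all 4. For Ncoa2 the RXRgKO-labelled sets had 0.16 and 0.27, and WT-labelled replicate 1 and replicates 2 to 4 had 0.043 and -0.28. The median of the 9 members was 0.039, 0.053, 0.15 and -0.083 in these 4 sets in turn, beside -0.021, 0.019, -0.030 and -0.036 over all genes. In the Xist-high set and WT-labelled replicates 2 to 4, Ddx3y also differed between treatments. The part of that difference in these changes was not tested.

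**Figure D4:**
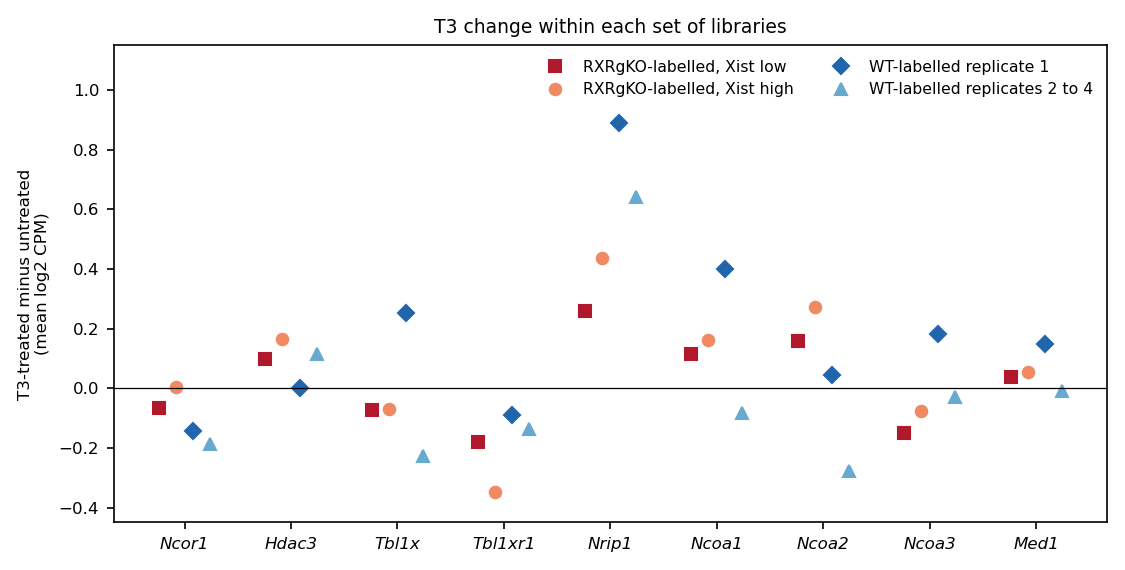
T3-treated minus untreated mean log2 CPM of each gene within each of 4 sets of libraries (2 against 2 in each RXRgKO-labelled set, 1 against 1 for WT-labelled replicate 1, 3 against 3 for WT-labelled replicates 2 to 4); 0 is no change. The points of Nrip1 run from 0.26 to 0.89, and those of the other members from -0.35 to 0.40.

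Between genotype labels with T3, no member passed edgeR's test, against 14.9% of all genes. DESeq2 and limma voom also called 0, and 0 members had an unadjusted p under 0.05. The 9 log2 fold changes ran from -0.17 for Nrip1 to 0.10 for Ncoa2, all 9 pairs of groups overlapped, while 18.1% of all genes did not, and the median was -0.052, beside 0.025 over all genes. Nrip1 averaged 54.0 ± 9.92 CPM in T3-treated RXRgKO-labelled and 60.7 ± 12.2 CPM in T3-treated WT-labelled libraries (SD, n = 4 each), a log2 fold change of -0.17 (SE 0.16, adjusted p = 0.565). Ncor1 averaged 238 ± 69.3 CPM under the RXRgKO label and 247 ± 34.9 CPM under the WT label, and the larger SD of the RXRgKO-labelled libraries holds the gap between their 2 sets.

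Without T3, again no member passed edgeR's test between genotype labels, against 11.3% of all genes, with 0 by DESeq2, 0 by limma voom and 0 at an unadjusted p under 0.05. The log2 fold changes ran from -0.31 for Ncoa2 to 0.19 for Nrip1, with a median of -0.014, beside -0.00082 over all genes. Ncoa2 averaged 83.1 ± 24.6 CPM in untreated RXRgKO-labelled and 103 ± 8.13 CPM in untreated WT-labelled libraries (SD, n = 4 each), with a 95% interval of the log2 fold change of -0.81 to 0.19 (adjusted p = 0.524). Nrip1 averaged 42.1 ± 5.03 and 36.8 ± 3.87 CPM under the same labels (adjusted p = 0.554). Over the 4 comparisons of 2 groups, the 32 intervals of the members other than Nrip1 reached from -0.81 to 0.73. Both ends were of Ncoa2, the lower between labels without T3 and the upper for T3 under the RXRgKO label. Changes up to those sizes were thus not excluded for Ncoa2 in those comparisons.

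The genotype values turned on which RXRgKO-labelled libraries were used. Without the 4 Xist-high libraries, Ncor1 (-0.54, adjusted p = 0.0156), Nrip1 (-0.49, adjusted p = 0.0338), Ncoa2 (-0.47, adjusted p = 0.0410) and Ncoa3 (-0.65, adjusted p = 0.0086) passed as lower under the RXRgKO label with T3, where 15.7% of all genes did. Without T3, Ncor1 (-0.64, adjusted p = 0.00896) and Ncoa2 (-0.80, adjusted p = 0.0037) passed as lower, beside 12.1% of genes. Without the 4 Xist-low libraries instead, 0 members passed in either comparison, beside 15.8% of genes with T3 and 11.3% without, and Ncor1 had 0.23 with T3 and 0.091 without. When the fit held the share of reads lying outside genes, Nrip1 was higher under the RXRgKO label without T3 (0.47, adjusted p = 0.0369), in a fit that called 15.5% of genes.

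The members moved together between sets of libraries inside a group, a description with no test because the sets were seen in these data. In T3-treated RXRgKO-labelled libraries 8 of 9 genes were lower in both Xist-low than in both Xist-high libraries, beside 39.7% of all genes, with a median difference of -0.46 on the log2 CPM scale. In untreated ones the same 8 were lower, beside 36.6%, with a median of -0.43. Tbl1x, 1 of these 8, lies on chromosome X, and the other members lie on autosomes. Its difference was -0.40 in both treatments, and the part of X linkage in it was not tested. Ncoa2, Ncoa3 and Ncor1 had the widest gaps, at -0.87, -0.75 and -0.74 with T3 and -0.75, -0.68 and -0.67 without. Hdac3 overlapped in both, at -0.035 and 0.032. WT-labelled replicate 1 exceeded replicates 2 to 4 for 9 of 9 genes with T3, beside 41.6% of all genes, and for 7 of 9 without T3, beside 42.3%. The share of reads outside genes moved with the RXRgKO-labelled sets: it was 16.8% to 18.7% in Xist-low and 11.5% to 12.5% in Xist-high libraries with T3, and 21.6% to 23.5% and 18.1% to 20.5% without. In WT-labelled libraries it was 12.5% in replicate 1 and 13.3% to 14.7% in replicates 2 to 4 with T3, and 16.7% and 16.7% to 17.6% without. Other shares set replicate 1 further apart: reads in genes were 46.7% in replicate 1 and 30.1% to 32.9% in replicates 2 to 4 with T3, and 41.0% and 25.4% to 27.1% without. Reads mapped to several places were 39.6% and 52.3% to 54.3% with T3, and 41.2% and 53.6% to 55.0% without. The part of these shares in the members' levels was not tested.

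Across the 16 libraries, Ncor1 had the closest profiles among members with Ncoa2 and Ncoa3 (Pearson r = 0.95 of log2 CPM each), and Hdac3 and Tbl1xr1 the least alike (r = -0.075). Among 11203 other protein-coding genes that averaged 5 CPM or more, the likest to Nrip1 were Rassf2 and Pgd (r = 0.97 each), and the likest to Ncor1 were Zc3h4 and Pik3ca (r = 0.99 each). For the other members they were Tmem129 and Tvp23a for Hdac3 (0.95 and 0.94), Usp34 and Usp42 for Tbl1x (0.96 each), and Zfp462 and Map3k2 for Tbl1xr1 (0.96 each). For the coactivators they included Furin for Ncoa1 (0.95), Ppm1e and Kdm5c for Ncoa2 (0.98 and 0.97), Cnot1 and Ubap2l for Ncoa3 (0.98 each), and Eprs for Med1 (0.99). These libraries share groups and sets, so the values of r describe profiles over 16 points that are not independent.

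Other genes of the same machinery were read from a list of 48 that passed the count filter, 21 corepressor and 27 coactivator genes. The 27 coactivator genes, among them Ep300, Crebbp, Carm1, Ncoa6, Ppargc1a and 7 Mediator subunits, had no call in any of the 5 comparisons, where 2.81% (T3, RXRgKO label), 8.44% (T3, WT label), 14.9% (labels, with T3), 11.3% (labels, without T3) and 0.0658% (response difference) of all genes were called. At an unadjusted p under 0.05 they numbered 1 and 1 for T3 under the RXRgKO and WT labels, 6 and 2 between labels with and without T3, and 0 for the response difference. Limma voom called 0 of them. DESeq2 called Ncoa4 and Ncoa7 lower under the RXRgKO label with T3, Prmt1 higher under that label without T3, and Kat2b higher with T3 under the WT label, genes given because DESeq2 called them.

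Hr, which encodes the corepressor Hairless of thyroid hormone receptors and is a known target of T3 in brain, rose under both labels. It had 83.3, 82.3, 164 and 166 CPM in T3-treated RXRgKO-labelled libraries, against 12.4, 15.4, 10.3 and 15.6 CPM in untreated ones, a log2 fold change of 3.21 (SE 0.32, adjusted p = 1.9e-05). It had 291, 197, 187 and 166 CPM in T3-treated WT-labelled libraries, against 61.5, 26.8, 29.6 and 29.4 CPM in untreated ones, a log2 fold change of 2.51 (SE 0.31, adjusted p = 8.3e-05). No group overlapped its counterpart, and Xist-high libraries with T3 and WT-labelled replicate 1 were the high ones. Without T3, Hr was lower under the RXRgKO label (-1.46, SE 0.30, adjusted p = 0.00386); with T3 the value was -0.76 (adjusted p = 0.0993), and the response difference was 0.70 (SE 0.42, adjusted p = 1.00).

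The histone deacetylase genes Hdac1 and Hdac9 also passed. Hdac1 rose with T3 under the WT label, to 14.3, 16.0, 17.9 and 20.6 CPM, against 12.8, 10.4, 10.5 and 13.4 CPM in untreated libraries (log2 fold change 0.55, SE 0.15, adjusted p = 0.0274). It was also higher without T3 under the RXRgKO label, with 15.3 to 18.3 CPM, against 10.4 to 13.4 CPM under the WT label (0.55, SE 0.15, adjusted p = 0.0196). Hdac9 fell with T3 under the WT label, to 25.8, 19.1, 20.01 and 19.3 CPM, against 30.7, 31.7, 32.6 and 31.8 CPM in untreated libraries (-0.59, SE 0.13, adjusted p = 0.00699). With T3 it was higher under the RXRgKO label, at 24.5 to 33.6 CPM, against 19.1 to 25.8 CPM under the WT label (0.48, SE 0.13, adjusted p = 0.0156), with overlap. For Hdac9 under the RXRgKO label T3 gave -0.019, and the response difference was 0.57 (SE 0.18, unadjusted p = 0.00535, adjusted p = 0.452). Hdac1 with T3 had adjusted p-values of 0.072 to 0.104 without untreated WT-labelled replicate 2 or 3 or T3-treated WT-labelled replicate 3 or 4, with changes of 0.45 to 0.53. Between labels it had 0.0528 to 0.0778 without untreated WT-labelled replicate 2 or 3 or untreated RXRgKO-labelled replicate 4, at 0.48 to 0.52. Hdac9 between labels had 0.0641 to 0.0796 without T3-treated WT-labelled replicate 2, 3 or 4 or T3-treated RXRgKO-labelled replicate 3 or 4, at 0.40 to 0.45.

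With T3, Lcor, a ligand-dependent corepressor gene, was lower under the RXRgKO label at 50.3 ± 11.3 CPM, against 74.5 ± 6.04 CPM under the WT label (SD, n = 4 each; log2 fold change -0.56, SE 0.18, adjusted p = 0.0427). Ctbp2, whose product is a corepressor that also binds NRIP1, was higher at 76.2 ± 3.79 CPM under the RXRgKO label, against 58.9 ± 6.73 CPM under the WT label (0.37, SE 0.10, adjusted p = 0.0217). Neither pair of groups overlapped. Both calls were lost in most single omissions: Lcor in 7 of 8, all but T3-treated RXRgKO-labelled replicate 4 (-0.65 to -0.47, adjusted p 0.0529 to 0.176), and Ctbp2 in 6 of 8, all but WT-labelled replicate 1 and RXRgKO-labelled replicate 2 (0.32 to 0.36, adjusted p 0.0703 to 0.101). Omitting whole sets also ended calls between labels. Without the Xist-low libraries Lcor had -0.36 (adjusted p = 0.0772), Ctbp2 0.33 (0.0526) and Hdac1 without T3 0.48 (0.092). Without the Xist-high libraries Hdac9 had 0.19 (adjusted p = 0.284) and Ctbp2 0.30 (0.0783), and without WT-labelled replicate 1 in both treatments Lcor had -0.50 (0.0847). With the share outside genes held, Hdac1 between labels had 0.33 (adjusted p = 0.147). With no low-count filter the calls of Hdac1, Hdac9, Lcor and Ctbp2 were all lost (adjusted p 0.0713 to 0.42), and in a fit to the groups compared so were those of Hdac1 with T3 (0.0534) and Ctbp2 (0.0553).

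**Figure D5:**
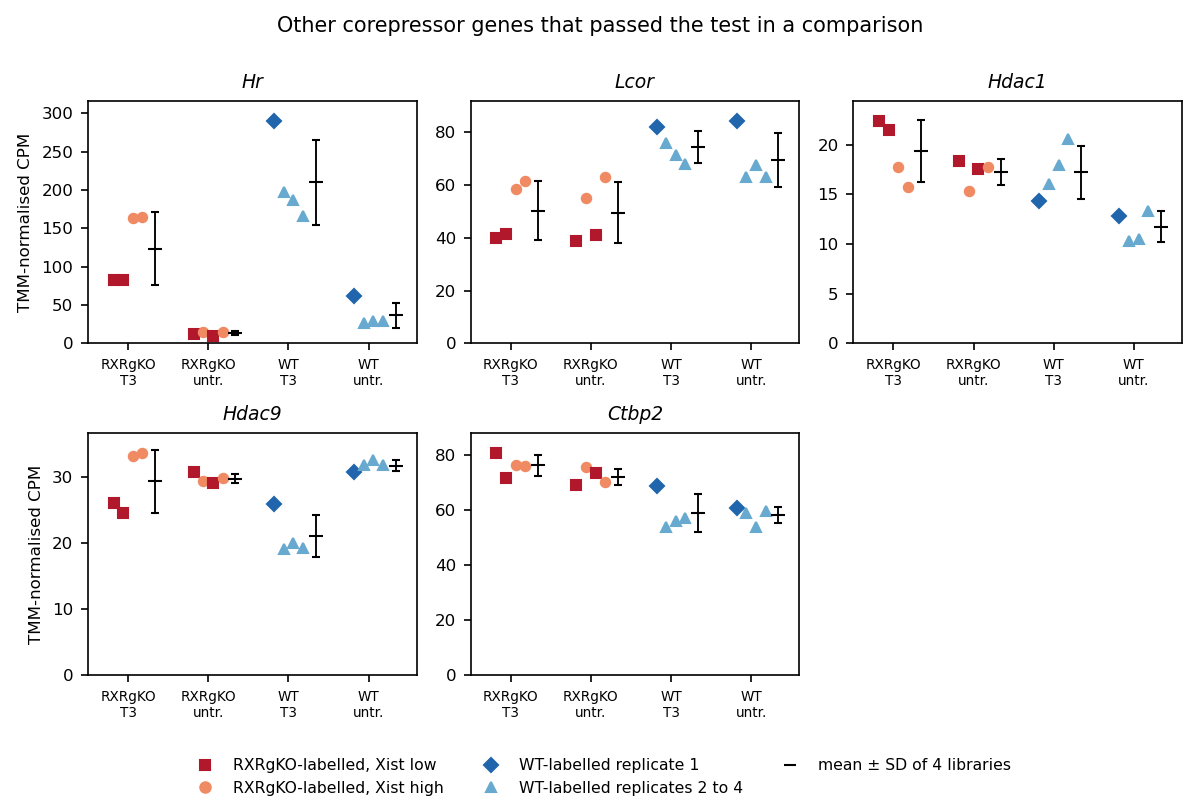
Normalised counts (TMM-normalised CPM, linear axes from 0) of 5 corepressor genes outside the 9 members that passed the test in a comparison, 1 point per library, with the mean ± SD of 4 libraries. T3-treated libraries of Hr (82.3 to 291 CPM) lie above all untreated ones (10.3 to 61.5 CPM), and RXRgKO-labelled libraries of Lcor lie below WT-labelled ones with T3.

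Of the receptors that these cofactors serve, the thyroid hormone receptor genes were lower under the RXRgKO label. Thra averaged 283 ± 68.0 CPM with and 278 ± 30.0 CPM without T3 under that label, against 455 ± 44.1 and 459 ± 123 CPM under the WT label (SD, n = 4 each; log2 fold changes -0.69 and -0.72, adjusted p = 0.0212 and 0.0184). Thrb averaged 10.8 ± 0.891 and 9.17 ± 0.599 CPM, against 18.4 ± 3.96 and 14.4 ± 0.156 CPM (-0.77 and -0.65, adjusted p = 7.4e-04 and 0.00334). Rxra and Rxrb had no call. Rxrg, with only 9 to 44 counts per WT-labelled library, was lower with T3 under the WT label (log2 fold change -1.10, adjusted p = 0.00908 by edgeR's test). Counter to the labels, it was higher under the RXRgKO label with T3 (2.79, adjusted p = 8.8e-07) and without (1.48, adjusted p = 2.0e-04). The Thra calls were lost without T3-treated WT-labelled replicate 1 or 2 or T3-treated RXRgKO-labelled replicate 1 or 2 (-0.70 to -0.58, adjusted p 0.0514 to 0.0966), and without untreated WT-labelled replicate 1 or untreated RXRgKO-labelled replicate 1 or 3 (-0.69 to -0.50, adjusted p 0.0692 to 0.0926). Without the Xist-low libraries Thra had -0.46 with T3 (adjusted p = 0.116) and -0.60 without (0.0544), and without WT-labelled replicate 1 in both treatments it had -0.51 without T3 (0.0565). With the share outside genes held Thra had -0.37 without T3 (0.167).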

How the data were processed

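The libraries were poly-A selected and marked strand with dUTP, per the labels' protocols. The authors deposited unnormalised read counts for each Ensembl gene. The submitters' processing notes name HTSeq 0.6.1p1, STAR 2.5.3a, bcl2fastq 2.17.1.14 and the build mm10. Neither the annotation release nor the counting's strand setting is given in the sources used here. The 5 summary lines of each file were left out of tests and library sizes: of the reads accounted for, the share outside genes was 11.5% to 23.5% and that mapped to more than 1 place 39.6% to 55.0%. GENCODE M21 (GRCm38) supplied symbols, positions and exon lengths and held 55154 of 55335 identifiers. Exons of other genes on the opposite strand overlap 1.95% of the exon length of Ncoa3 (Sulf2), 0.793% of Ncoa1 and 0.64% of Ncor1, and no member shared more than 1.52% of its 50-base stretches with other genes' transcripts. Promoter sequences are RefSeq's.

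In edgeR 4.0.16 (R 4.3.3), 1 quasi-likelihood model with a mean for each group was fitted to all 16 libraries, with TMM factors and robust dispersions, over the 19764 genes that filterByExpr kept. A gene was called when its p, adjusted by Benjamini and Hochberg's method over these genes, was under 0.05. Log2 CPM used a prior count of 2. Members had 429 to 11960 counts per library. The dispersions were estimated from the spread between the libraries of a group. PCR copies of a molecule cannot be told from separate molecules in these counts. Members, lists, tests and alternatives were chosen with earlier results of these data known. The text names all members, the 5 receptor genes, up to 6 called other coregulators per comparison and Hr, the 2 likest genes of each member, and the leading cell type markers; some genes that this rule names are not reported here.

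For T3 under the WT label, the residuals of same-numbered libraries correlated at 0.648, 0.247, 0.211 and 0.164. Only replicate 1 was closest to its own number, so these values do not show that the numbers are pairs. The other comparisons had negative values among theirs. The reported fit paired no libraries in any comparison, and a block on the replicate numbers was an alternative only. Alternatives were limma 3.58.1 with voom, DESeq2 1.42.0 and its size factors in edgeR, other filters, dispersions without robust fitting, fits to the compared groups alone, a replicate block, a term for the library set, a covariate for the share of reads outside genes, and omitted sets or single libraries.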

Additional observations from a re-analysis of the deposited data

Results flagged for a closer look

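Med1 stood at 140 CPM (139.6) in T3-treated WT-labelled replicate 1, against 95.4 to 101 CPM in the other 3 libraries of that group. The gap to the nearest library was 0.876 of the group's range, above Dixon's 95% critical value for 4 libraries. This was 1 of 36 sets of 4 values examined, of which chance alone marks about 1 in 20. The same library was the highest of its group for all 9 coregulator genes. Without it, the log2 fold change of Med1 with T3 under the WT label was -0.12, against 0.040 with it, and neither passed the test.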

How the results depend on the processing

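DESeq2, limma voom, DESeq2 size factors, other filters, non-robust dispersions, a fit to the groups compared and the replicate block moved the number of members called in none of the 5 comparisons. Single omissions gave 0 to 1 members for T3 under the WT label and 0 in the other 4. With the block on replicate numbers, Nrip1 with T3 under the WT label had 0.71 (adjusted p = 0.00374), and no call of a member changed. Between labels with T3, the numbers do not pair libraries. There the block called 1 other coregulator, as did the fit with no low-count filter. DESeq2 called 7, where the main fit called 4. Over all genes, the block called 2160 and DESeq2 3686 of 19764, and the fit with no filter 2293 of 49786. Under that block the adjusted p was 0.0766 for Hdac9, 0.135 for Lcor, 0.0906 for Ctbp2 and 0.0668 for Thra with T3, and 0.0889 for Hdac1 and 0.0906 for Thra without. The fit with no filter gave 1 other coregulator with T3 under the WT label, where the main fit called 3, beside 1133 of 49786 genes. Between labels without T3, DESeq2 gave 6, where the main fit called 3, beside 2800 of 19764 genes. Single omissions gave 2 to 4 other coregulators for T3 under the WT label, 1 to 4 and 2 to 3 between labels with and without T3, and 1 and 0 in the other comparisons.

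The library set as a term called 3 members for T3 under each label and 2 for the response difference. It called 8, 16 and 3 of the 48 other coregulators, beside 33.6%, 38.4% and 6.68% of all genes. Reads outside genes as a covariate called 5 and 4 members and 28 and 24 other coregulators for T3 under the RXRgKO and WT labels, beside 25.2% and 24.0% of all genes. Between labels without T3 it called 1 member, Nrip1 (0.47), beside 15.5% of genes. Leaving out the Xist-high libraries called 4 and 2 members and 23 and 20 other coregulators between labels with and without T3. That fit called 5955 and 4518 of 21620 genes. The causes were not tested. The set term could not be used between labels, since each set holds 1 label.

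Some signs turned. With the covariate, T3 under the RXRgKO label gave -0.10 for Nrip1 (reported 0.36), -0.36 for Ncoa1, -0.69 for Ncoa2 (reported 0.23) and -0.47 for Med1, and under the WT label -0.25 for Ncoa1, -0.43 for Ncoa3 and -0.27 for Med1. Between labels it gave Ncor1 0.079 with T3 and 0.26 without, and Ncoa2 0.22 without (reported -0.31). With no filter, Ncor1 with T3 under the RXRgKO label was 0.015. Without WT-labelled replicate 1, T3 gave -0.087 for Ncoa1, -0.028 for Ncoa3 and -0.015 for Med1, and Ncor1 between labels with T3 was 0.054. Without the Xist-low libraries, Nrip1 between labels with T3 was 0.00082, Ncor1 was 0.23 with T3 and 0.091 without, and Ncoa2 was 0.015 without. Without the Xist-high libraries, Ncoa2 was -0.47 with T3 and Nrip1 -0.020 without. Single omissions spanned 0 for T3 under the RXRgKO label in Ncor1 (-0.18 to 0.10), Tbl1x (-0.16 to 0.0059), Ncoa3 (-0.25 to 0.034) and Med1 (-0.055 to 0.14). They did so for T3 under the WT label in Ncoa1 (-0.10 to 0.13), Ncoa3 (-0.10 to 0.14) and Med1 (-0.12 to 0.15), and between labels with T3 in Ncor1 (-0.19 to 0.069) and Ncoa2 (-0.070 to 0.26). Of 436 alternative values of the 19 member values given as ranges, 82 had the other sign, for reported values of at most 0.15 in size, and 1 passed the test.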
